A study of Macaca mulatta with 38 samples.

Results

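The earliest blood cells sampled from a rhesus macaque after transplantation were examined through 4 libraries of lentiviral barcodes. These are all the libraries taken at day 32, the earliest day among the 38 of the series. They were chosen by their labels alone, as the columns named T, B, Gr and Mono with the day 32. Gr and Mono are the usual short names in this field for granulocytes and monocytes. All 4 came from peripheral blood of 1 animal, the male macaque ZL34, aged 4 years. Its CD34+ cells were mobilised with granulocyte colony-stimulating factor (G-CSF) and an agent that the labels spell AMD1300, a spelling that was not checked. The cells received the barcode library at a multiplicity of infection of 25 and were returned to the animal after total body irradiation (TBI). The animal was given 5 mg/kg of cidofovir weekly. There is 1 library per lineage and day, so no test between lineages or days was possible and every value below is a description of these libraries. The libraries hold barcode DNA and no expression, so the labelled cell types could not be checked against markers.

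A barcode is a short tag that the vector writes into the genome of a transduced cell, and all descendants of the cell carry it. After transplantation the first cells in the blood are thought to come mainly from committed and short-lived progenitors, and long-lived stem cells take over later. Granulocytes and monocytes share a late common progenitor and turn over within days, B cells take longer to appear, and new T cells have to pass through the thymus. At a high multiplicity of infection a cell takes up several vector copies and hence several barcodes, so a number of barcodes is larger than the number of cells behind it.

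The barcodes that the results below turn on are shown here from the vector's shared start (lower case, gcaact or a form shifted by a base) to the base before the sequencing adapter, with the variable part in capitals. They are numbered by their mean read share over all 38 libraries. The first 3 led the T and B libraries of day 32 and were listed in no other day 32 library.
bc87: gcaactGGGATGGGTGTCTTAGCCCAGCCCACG
bc155: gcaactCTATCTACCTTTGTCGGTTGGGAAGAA
bc3787: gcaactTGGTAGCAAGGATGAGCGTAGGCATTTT
The next 4 led the Gr and Mono libraries of day 32.
bc22: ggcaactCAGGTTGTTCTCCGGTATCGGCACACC
bc27: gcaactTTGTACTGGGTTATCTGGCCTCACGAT
bc33: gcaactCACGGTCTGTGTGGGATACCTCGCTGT
bc51: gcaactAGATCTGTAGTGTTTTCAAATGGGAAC
The following 2 had the highest lowest share among barcodes listed in all 4 lineages.
bc262: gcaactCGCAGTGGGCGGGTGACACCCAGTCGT
bc479: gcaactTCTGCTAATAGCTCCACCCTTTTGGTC
The last 3 led the Gr and Mono libraries at day 119.
bc7: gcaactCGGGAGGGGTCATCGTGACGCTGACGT
bc8: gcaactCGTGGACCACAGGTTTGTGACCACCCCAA
bc9: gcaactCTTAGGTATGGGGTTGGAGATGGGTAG

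The 4 libraries held 1718938 reads in T, 2549287 in B, 1438491 in Gr and 1922035 in Mono, summed over the barcodes in the deposited table. No count from 1 to 100 occurs in that table, so a barcode given as 0 is taken as having 100 reads or fewer, and a barcode above 0 is called listed. This limit is inferred from the counts. It stands at 0.00582% of reads in T, 0.00392% in B, 0.00695% in Gr and 0.00520% in Mono, so B could list rarer barcodes than Gr. Shares of reads have exact Clopper-Pearson intervals at 95%. These reach at most 0.0796 percentage points on either side for a class of barcodes at day 32, 0.0154 for a single barcode and 0.112 for a share of a later library. They cover counting error only, because several PCR reads can stem from the same molecule and no molecular identifiers are recorded.

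The T library was made of few barcodes with many reads each, and the other libraries of many barcodes close to the limit of listing. T listed 525 barcodes, B 15815, Gr 8820 and Mono 10210. The median listed barcode had 3459 reads in T, 125 in B, 141 in Gr and 150 in Mono. In B 74.5% of the listed barcodes had 101 to 200 reads, as did 81.5% in Gr and 71.7% in Mono, against 2.48% in T. The numbers listed in B, Gr and Mono are therefore lower bounds set in part by the limit. In T the limit lay far below most barcodes, and whether few barcoded T cells were sampled or few barcodes were present among them cannot be told apart.

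**Figure D1:**
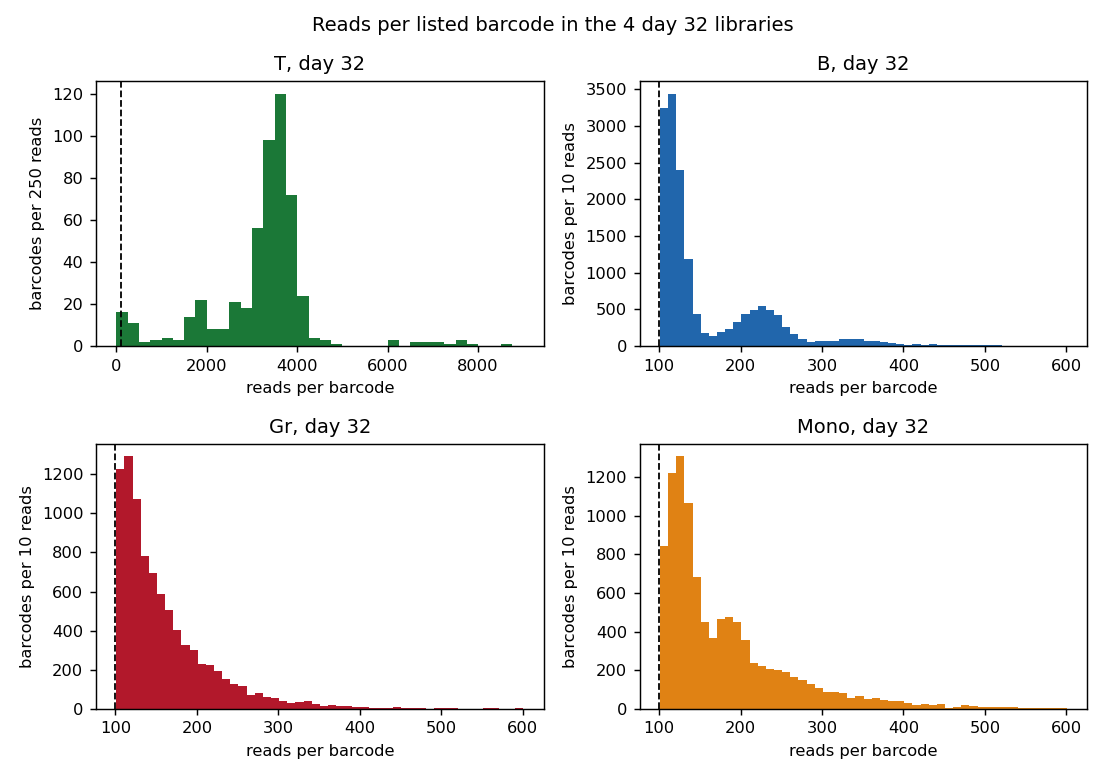
Number of barcodes (y axis) by reads per barcode (x axis) in each day 32 library, in bins of 250 reads for T and 10 reads for the others, with a dashed line at 100 reads. The T axis ends at 9000 reads and leaves out 2 barcodes, and the other axes end at 600 reads and leave out 36 barcodes in B, 29 in Gr and 78 in Mono. T had its main peak at 3575 reads. B had peaks at 111 and 227 reads, and a smaller rise at 321 to 350 reads that was not scored as a peak.

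Reads per barcode had more than 1 peak in T, B and Mono. In B the smoothed histogram peaked at 111 reads and again at 227 reads, which is 2.05 times the first peak. 10900 B barcodes (68.9%) had 101 to 160 reads, 559 had 161 to 190 and 3244 had 191 to 280. B numbers rose once more above that, which was not scored as a peak. They stood at 58 barcodes at 281 to 290 reads and 64 at 311 to 320. They were then 102 at 321 to 330, 101 at 331 to 340 and 100 at 341 to 350, and 75 at 351 to 360. In Mono the peaks lay at 123 and 186 reads, 63 reads apart. A Mono peak placed 63 reads below the first would lie under the limit, and whether one exists was not tested. In T the main peak was at 3575 reads, with smaller ones at 1798 and 7030, whose heights were 16.0% and 2.10% of the main one. Of the 525 T barcodes, 413 (78.7%) had 2501 to 4500 reads. A T peak was also scored at 101 reads, at 18.8% of the main height, but 101 is where the range starts. T numbers only fell from there, with 16 barcodes up to 250 reads, 11 at 251 to 500 and 2 at 501 to 750. Gr had a single peak, at 111 reads. With less smoothing T had 8 peaks between 101 and 7523 reads, the first again at the start of the range and the highest at 3627. The number of smaller T peaks thus depends on the smoothing. The one at 1798 reads was scored again with less smoothing, at 1790. Around 7030 reads, peaks were then scored at 6193, 6964 and 7523, and others appeared at 2665 and 4690. With wider smoothing the first peak moved to 103 reads in B and 105 in Gr, next to the limit, and to 122 in Mono. Whether the peaks, or the further rise in B, stand for whole numbers of template molecules was not tested. How many molecules lie behind a listed barcode, and behind the evenness and single-lineage listings below, is therefore not known.

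Reads were spread evenly over the listed barcodes in all 4 lineages. The effective number of barcodes is the number of equally abundant barcodes that would give the same Shannon diversity. As a percentage of the barcodes listed, it was 91.3% in T, 90.9% in B, 91.3% in Gr and 86.6% in Mono. Evenness, the log of the effective number over the log of the number listed, was 0.985 in T, 0.990 in B, 0.990 in Gr and 0.984 in Mono. The Gini coefficient, which is 0 when all barcodes have the same reads, was 0.185 in T, 0.225 in B, 0.202 in Gr and 0.253 in Mono. Since barcodes at or under the limit are missing, the evenness over all barcodes in the cells is unknown.

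No barcode dominated any lineage at day 32. The most abundant held 1.07% of reads in T, 0.0771% in B, 0.240% in Gr and 0.157% in Mono. The 100 most abundant together held 27.3% in T, 2.32% in B, 4.82% in Gr and 6.00% in Mono. The smallest set that held at least 50% of the reads had 206 barcodes in T, 5030 in B, 3114 in Gr and 3218 in Mono. The tails differed more than the bulk. 44 Mono barcodes and 16 Gr barcodes had over 1000 reads, against 1 in B, while the medians of these 3 libraries were 150, 141 and 125 reads.

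**Figure D2:**
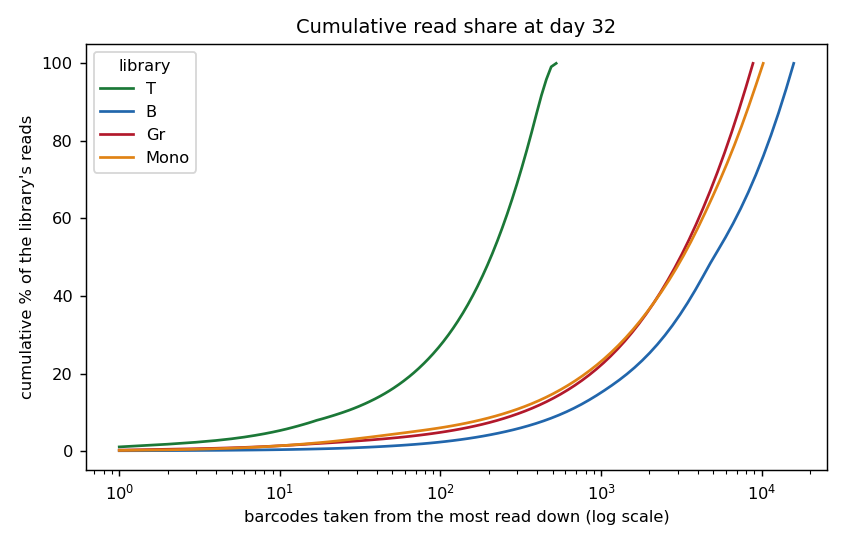
Cumulative percent of a library's reads (y axis) against the number of barcodes taken from the most read down (x axis, log scale) for the 4 day 32 libraries. The top 100 reach 27.3% in T, and 2.32 to 6.00% in B, Gr and Mono.

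Day 32 was more even than every later library of the same lineage. In T evenness was 0.985 at day 32 and 0.603 to 0.799 in the 8 later libraries. In B it was 0.990 at day 32 and 0.730 to 0.973 in 7 later libraries, in Gr 0.990 and 0.462 to 0.855 in 6, and in Mono 0.984 and 0.385 to 0.721 in 6. The share of the leading barcode was likewise lowest at day 32, with 0.240% in Gr at day 32 against 3.30 to 20.8% later, and 0.157% in Mono at day 32 against 7.49 to 19.7% later. T was the exception in number. Its 525 listed barcodes were fewer than in any of its later libraries, which listed 1019 to 8450. The other 3 lineages listed the most barcodes at day 32. The effective number of T barcodes, 479 at day 32, was higher than in 5 of the 8 later T libraries, which had 129 to 1375. In the other 3 lineages the effective number was highest at day 32.

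Most barcodes were listed in a single lineage. Of 26702 barcodes listed in any of the 4 libraries, 19478 (72.9%) were listed in 1 lineage, 5811 (21.8%) in 2, 1382 (5.18%) in 3 and 31 (0.116%) in all 4. B contributed most of the single-lineage barcodes, with 10627, followed by Mono with 4849, Gr with 3755 and T with 247. These made up 67.2% of the B list, 47.5% of the Mono list, 42.6% of the Gr list and 47.0% of the T list. By reads the single-lineage part was somewhat smaller, at 64.0% in B, 42.1% in Mono, 38.5% in Gr and 43.7% in T. A single-lineage barcode can have had up to 100 reads in each of the other libraries, which is close to the median of a listed barcode in B, Gr and Mono, so a listing in a single lineage does not show that a barcode was absent from the others.

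**Figure D3:**
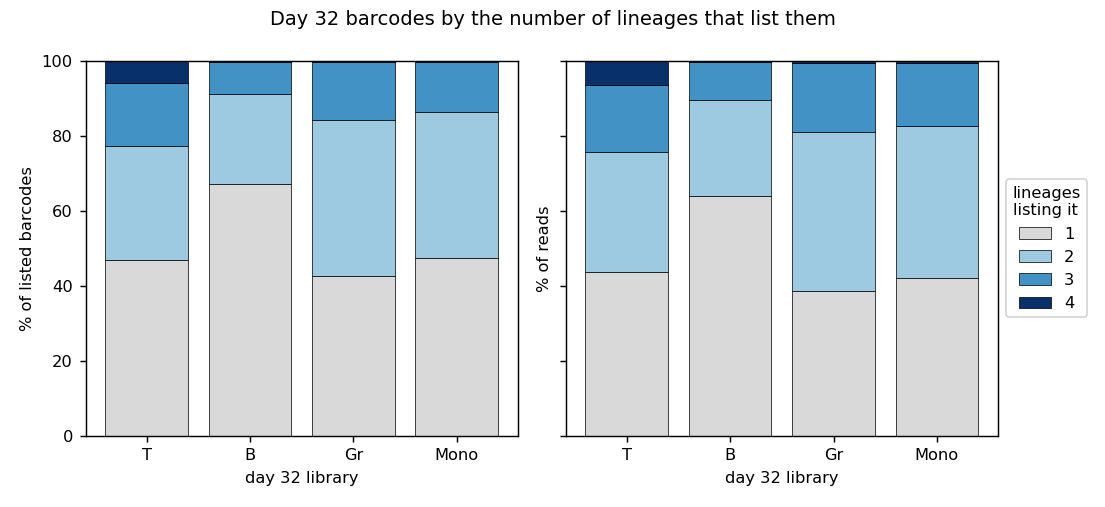
Percent of listed barcodes (left) and percent of reads (right) in each day 32 library, split by whether 1, 2, 3 or 4 of the lineages list the barcode. Barcodes of a single lineage made up 64.0% of B reads and 38.5 to 43.7% of the reads of T, Gr and Mono.

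The pairs of lineages among B, Gr and Mono had nearly the same number of barcodes in common, but Gr and Mono shared the larger part of their reads. Gr and Mono had 3286 barcodes in common, 37.3% of the Gr list and 32.2% of the Mono list, and these held 42.3% of Gr reads and 38.7% of Mono reads. B and Gr had 3073 in common, 19.4% of the B list and 34.8% of the Gr list, with 22.2% of B reads and 37.1% of Gr reads. B and Mono had 3356 in common, 21.2% of the B list and 32.9% of the Mono list, with 23.2% of B reads and 35.5% of Mono reads. By number alone a Mono barcode was thus listed in B about as often as in Gr. The B list was the longest and reached the lowest share, which favours B in such counts.

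With a matched share limit or matched list lengths, Gr and Mono had more barcodes in common than either had with B. With 1 common limit of 0.00695% of reads for all libraries, Gr and Mono had 2411 barcodes in common, against 1231 for B and Gr and 843 for B and Mono. With the 525 most abundant barcodes of each library, Gr and Mono had 113 in common (21.5% of each list), B and Gr 33 (6.29%) and B and Mono 27 (5.14%). The common limit lies above the median share of a B barcode, 0.00490%. It kept all 8820 barcodes of Gr, 6508 of the 10210 of Mono and 4666 of the 15815 of B, so the pairs with B were counted over the more abundant B barcodes only. These alternatives moved the counts of B by over 1.5 times, and the order of the pairs among B, Gr and Mono changed with them.

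Sharing between Gr and Mono rose with abundance and reached 28 of 29 Gr barcodes and 65 of 78 Mono barcodes above 600 reads. Of the Gr barcodes with 101 to 150 reads, 30.5% of 5066 were listed in Mono, of those with 151 to 300 reads 43.8% of 3431, of those with 301 to 600 reads 71.4% of 294, and of those above 600 reads 28 of 29. Of the Mono barcodes, 24.8%, 35.7%, 55.0% and 83.3% were listed in Gr over the same steps, the last being 65 of 78. Listing in B rose less, to 55.2% of the top Gr step and 51.3% of the top Mono step (16 of 29 and 40 of 78 barcodes, which are not independent where they share a cell). B barcodes behaved alike towards Gr and Mono at the lower steps, with 16.4% and 19.0% listed there at 101 to 150 B reads, and 24 and 18 of 36 at over 600 B reads.

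**Figure D4:**
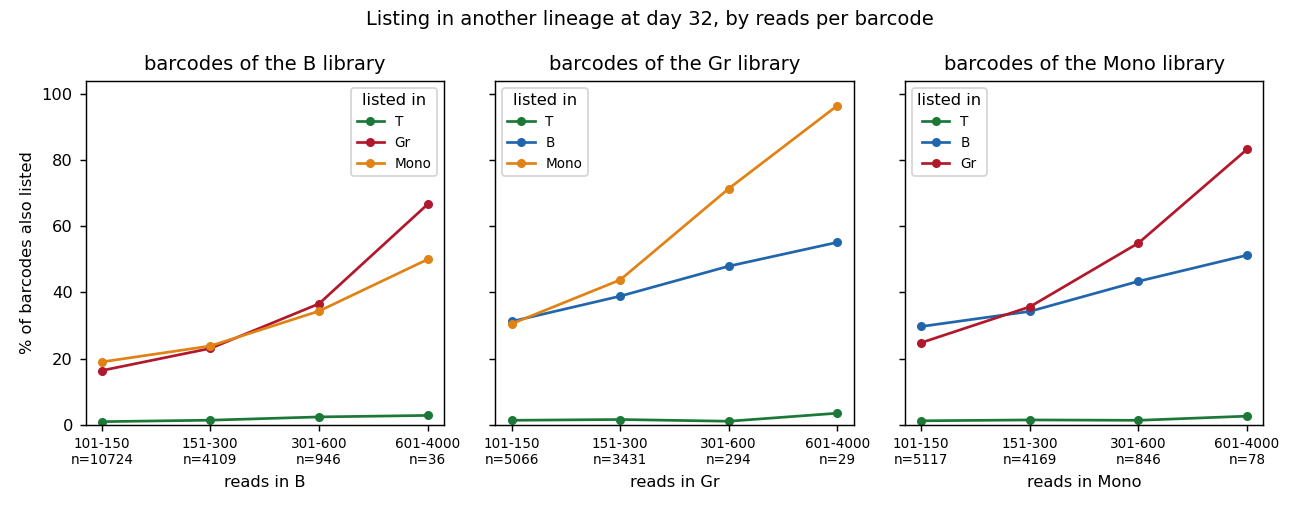
Percent of the barcodes of the B, Gr and Mono libraries of day 32 (panels) that another day 32 library also listed (y axis, coloured by that library), by reads per barcode in the panel's library (x axis, with the number of barcodes). Gr and Mono reach 96.6% and 83.3% in each other at over 600 reads, against 55.2% and 51.3% in B.

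The top of each list shows the same difference barcode by barcode. All 10 of the most abundant Gr barcodes were listed in Mono and all 10 of the most abundant Mono barcodes in Gr, while B listed 6 and 7 of them and T listed 1 and 1. Among the top 100, 88 of Gr were listed in Mono and 84 of Mono in Gr, with 51 of each in B and 2 of each in T. Only 6 of the top 100 of Gr and 5 of the top 100 of Mono were listed in no other lineage, against 28 of B and 41 of T. Over the 3286 barcodes in both, the log2 ratio of the Gr share to the Mono share had a median of 0.25, and 2686 (81.7%) lay within a factor of 2. Among the 37 in the top 100 of both, the median was −0.24 and 28 (75.7%) lay within a factor of 2. With most listed barcodes of both libraries at 101 to 200 reads and none lower, the ratio could not range far for them. Pearson's r of the log2 shares was 0.363 over these 3286 barcodes, and 0.0959 to 0.140 in the other 5 pairs. Spearman's rho was 0.198 for Gr and Mono and 0.0507 to 0.134 in the other 5. These are correlations across barcodes listed in both libraries only, barcodes of 1 cell are not independent, and no test was made.

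T was the smallest list, and most of its reads lay in barcodes that at least 1 other lineage listed. Of its 525 barcodes, 174 (33.1%) were listed in B, 131 (25.0%) in Mono and 123 (23.4%) in Gr, holding 34.6%, 27.3% and 25.2% of T reads. They were few in the other lists, at 1.10% of B, 1.28% of Mono and 1.39% of Gr barcodes. With the common limit 68 T barcodes were listed in B, 95 in Mono and 123 in Gr, so B then listed the fewest. Of the 91 T barcodes with up to 2500 reads 18.7% were listed in B, 17.6% in Mono and 14.3% in Gr. Of the 413 with 2501 to 4500 reads 36.6% were listed in B, 25.2% in Mono and 24.7% in Gr. Of the 21 above that 28.6% were listed in B, 52.4% in Mono and 38.1% in Gr.

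Differences of at least 4-fold between lineages could be seen for the more abundant barcodes only. A barcode was counted where its share was at least 4-fold higher in the first lineage than in the second, with a 0 in the second set to 100 reads, so the fold against a 0 is a lower bound. Gr over Mono had 110 such barcodes, 0.699% of the 15744 listed in either, and Mono over Gr had 28, 0.178%. Gr over B had 728, 3.38% of 21562, and B over Gr had 4, 0.0186%. Mono over B had 642, 2.83% of 22669, and B over Mono had 36, 0.159%. Of the 110 and 28, 23 and 11 were listed in both Gr and Mono. Of the 728 and 642, 141 and 134 were listed in B. A barcode at 0 in Gr needed at least 0.0278% of B or Mono reads to count. A barcode at 0 in B needed 0.0157% of Gr or Mono reads, so the rule was stricter for B. A barcode at 0 in Mono needed 0.0208% of Gr reads, so between Gr and Mono the rule was stricter for Mono. The median shares were 0.00490% in B, 0.00980% in Gr and 0.00780% in Mono, so a barcode at the median of its list and at 0 in the other of these libraries could not have met the rule, and the low counts do not show that bias was rare.

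The same rule counted nearly every T barcode, since the T list was short and each of its barcodes held a larger share. T over B had 508 barcodes, 3.14% of 16166, and B over T had 35, 0.217%. T over Gr had 497, 5.39% of 9222, and Gr over T had 205, 2.22%. T over Mono had 503, 4.74% of 10604, and Mono over T had 202, 1.9%. None of the barcodes higher in B, Gr or Mono than in T was listed in T.

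The leading barcodes of T were mostly seen in 1 or a few lineages and left little trace later. bc87 had 18336 reads in T, which is 1.07%, and was listed at 0 in B, Gr and Mono. It was listed in 1 of the 34 later libraries, B at day 119, with 0.0110%. bc155 had 11959 reads in T (0.696%), was listed at 0 in B, Gr and Mono, and in no later library. bc216 had 8661 reads in T and 362 in Mono, and was later listed in 3 B libraries only. bc225 had 7794 reads in T, 236 in Gr and 456 in Mono, and was listed in 9 later libraries at up to 0.00971%. bc332 had 7534 reads in T and 113 in Gr, with 1 later listing in B.

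The leading barcodes of B were small and mixed. bc3787 had 1965 reads in B, 0.0771%, and was listed at 0 in T, Gr and Mono. Its only later listing was in T at day 187, at 0.0160%. bc2895 had 930 reads in B only, and came back in 6 later B libraries, 1 T library and 1 Gr library, at up to 0.0356%. bc170 had 885 reads in B, 593 in Gr and 278 in Mono, and later reached 0.206% in B at day 393, with listings in 6 B and 3 T libraries and in no later Gr or Mono library. bc5887 had 817 reads in B and 144 in Gr, and bc3154 had 763 in B and 123 in Mono.

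The leading barcodes of Gr were all listed in Mono. bc22 had 3447 reads in Gr (0.240%) and 981 in Mono (0.0510%), a log2 ratio of Gr to Mono of 2.23, and was listed at 0 in T and B. bc27 had 198 reads in B, 3124 in Gr (0.217%) and 1973 in Mono (0.103%), a log2 ratio of 1.08. bc29 had 1985 reads in Gr and 1121 in Mono, a log2 ratio of 1.24. bc8 had 1707 reads in Gr and 1566 in Mono, a log2 ratio of 0.54. All 5 leaders of Gr were listed at 0 in T at day 32 and listed in 8 of 8 later T libraries. The fifth, bc33, was also the leader of Mono, with 1674 reads in Gr (0.116%) and 3009 in Mono (0.157%).

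The leading barcodes of Mono parted by day 119. The Mono share of bc33 was 0.157% on day 32 and 3.17% on day 119, that of bc39 was 0.150% and then 2.90%, and that of bc32 was 0.147% and then 3.15%. In T, which listed none of them on day 32, they held 0.528%, 0.439% and 0.526% on day 119. bc51 made up 0.151% of Mono on day 32 and 0.0650% on day 119, and bc53 made up 0.130% and then 0.0536%. T listed neither on day 32, and on day 119 their T shares were 1.12% and 0.943%. At day 32 their log2 ratio of Gr to Mono was −2.73 and −1.75, against −0.91 to −0.43 for bc33, bc39 and bc32. The 5 barcodes were thus alike in Mono at day 32 and differed by day 119, and with single libraries this was not tested. bc33, bc39 and bc32 had similar shares on both days, as did bc51 and bc53. Barcodes with similar shares may share a cell, which was not tested, so the 5 may not be separate observations.

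The 31 barcodes listed in all 4 lineages made up a larger part of T than of the other libraries, because the T list was the shortest. They were 5.90% of the T list, 0.196% of the B list, 0.351% of the Gr list and 0.304% of the Mono list. They held 6.51% of T reads, 0.274% of B reads, 0.502% of Gr reads and 0.523% of Mono reads. In each library the read share was above the list share, and relative to the list share it was raised least in T. Their median reads were 3513 in T, 160 in B, 178 in Gr and 184 in Mono, against 3459, 125, 141 and 150 over each whole list. bc262 had 3117 reads in T, 426 in B, 274 in Gr and 1962 in Mono, the last being 0.102%. bc479 had 3564 reads in T, 423 in B, 392 in Gr and 410 in Mono. bc317 had 6668 reads in T, 349 in B, 212 in Gr and 364 in Mono. In bc533 and bc720 the lowest shares over the 4 lineages were 0.0102% and 0.00959%. All 31 were listed in some later library, but these 5 reached at most 0.0357% in any.

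The most abundant barcodes of a single lineage differed in their later course. The top 3 listed in Mono only, bc3779, bc4278 and bc4667, had 1679, 1411 and 1271 reads, up to 0.0874% of Mono. Each was listed in 1 later library, T at day 119, with 0.00590%, 0.00952% and 0.00962%. Among the top 3 listed in Gr only, bc1284 (546 reads) was listed in 14 later libraries and bc57 (456 reads) in 18, reaching 0.533% in Mono at day 119, while bc10523 (462 reads) was never listed again. bc391, the third of those listed in T only, with 6915 reads, was listed in 2 later B libraries. bc11383, the third of those listed in B only, with 753 reads, was not listed later.

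Barcodes listed in more lineages at day 32 were listed later more often. 57.1% of those in 1 lineage were listed in some later library, 77.7% of those in 2, 89.4% of those in 3 and 31 of 31 in all 4. Among single-lineage barcodes this was 46.2% for T, 49.3% for B, 62.6% for Gr and 70.2% for Mono. Reads moved with it. Of Mono barcodes with 101 to 150 reads 71.5% were listed later, and of those above 600 reads 77 of 78. Of Gr barcodes the corresponding values were 68.2% and 29 of 29. How far abundance accounts for the rise with the number of lineages was not tested. In all, 16899 of the 26702 (63.3%) were listed in at least 1 of the 34 later libraries.

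The later B libraries listed these barcodes most often. Over the 6 later days that all 4 lineages share, 55.4% of the barcodes listed only in Mono at day 32 were listed in B, 30.8% in T, 17.0% in Gr and 13.1% in Mono itself. For barcodes listed only in Gr the values were 48.3% in B, 26.7% in T, 11.1% in Gr and 8.84% in Mono. For barcodes listed only in B they were 35.5% in B, 20.7% in T, 8.31% in Gr and 6.65% in Mono, and for those listed only in T 33.2% in B, 17.4% in T, 5.67% in Gr and 4.05% in Mono. The order of B, T, Gr and Mono was the same in all 4 classes. The later libraries list very different numbers of barcodes, 3296 to 13465 in B against 12 to 3670 in Mono, and the median numbers listed, 8349 in B, 4047.5 in T, 1041 in Gr and 502.5 in Mono over all later libraries of a lineage, stand in the same order.

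By reads, the Gr list and the Mono list of day 32 each held more than the B list in every later T, Gr and Mono library, and the T list held at most 1.29% in any later library of the 4 lineages. In the 8 later T libraries the barcodes of the Mono list of day 32 held 43.9 to 71.2% of reads, those of the Gr list 44.6 to 69.7%, those of the B list 34.5 to 43.0% and those of the T list 0.236 to 0.651%. In the 7 later B libraries the Mono list held 34.2 to 59.8%, the Gr list 26.5 to 54.7%, the B list 32.3 to 38.6% and the T list 0.708 to 1.29%. In the 6 later Mono libraries the Mono list held 76.3 to 99.9% and the Gr list 73.1 to 99.9%. The B list held 36.5 to 49.2% and the T list 0 to 0.371% there. In the 6 later Gr libraries the Gr list held 45.2 to 99.8%. The T list has 525 barcodes against 15815, 8820 and 10210, so these shares are not per barcode. Some of them rest on very few members. At day 494 in Mono the share of the Mono list came from 8 barcodes and that of the B list, 49.2%, from 3 barcodes. Of the B list, bc2, bc4, bc6, bc9 and bc16 were among the leaders of later libraries. They had 120, 160, 108, 204 and 102 B reads at day 32, where the limit is 100. How far the later share of the B list depends on this limit was not tested.

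**Figure D5:**
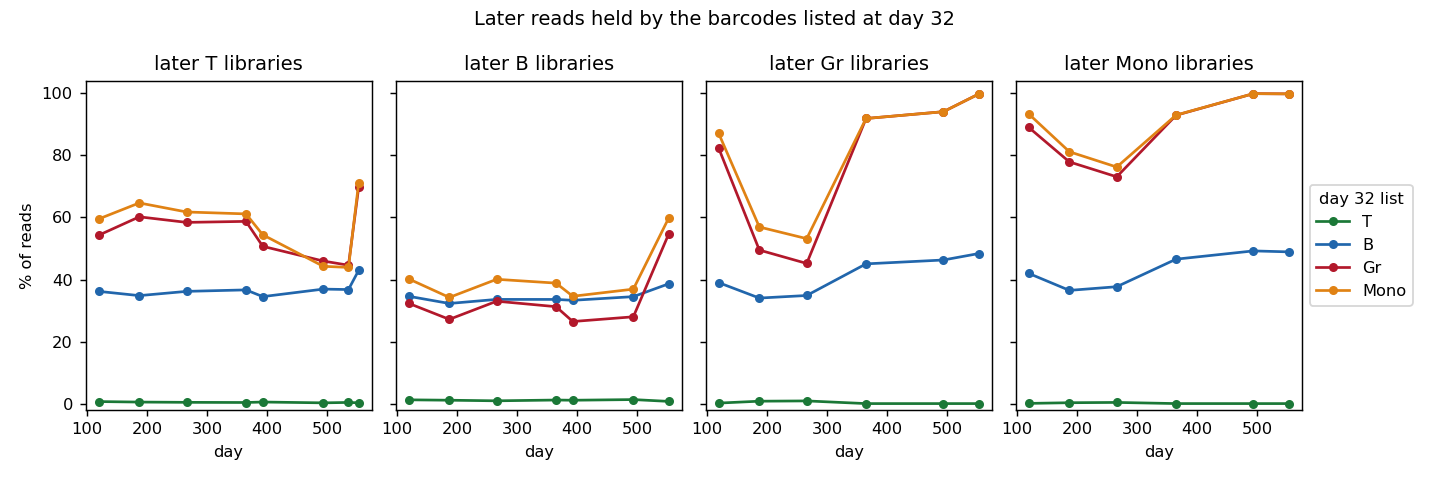
Percent of reads in each later T, B, Gr and Mono library (panels, y axis) held by the barcodes that each day 32 library listed (coloured lines), by day (x axis). A barcode on several lists counts in each. The T list stays at or under 1.29% in all panels, and the Mono list holds 43.9 to 71.2% of later T reads.

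The barcodes that led at day 119 were listed at day 32 more often in Gr and Mono than in B or T. Of the 100 leading T barcodes of day 119, which held 47.5% of its reads, 0 were listed in T at day 32, 35 in B, 57 in Gr and 74 in Mono. Where listed, their median rank at day 32 was 62 in Gr, 122 in Mono and 7098 in B. Among all 8450 barcodes listed in T at day 119, 96 were listed in T at day 32, 2571 in B, 1909 in Gr and 2343 in Mono. Of the 100 leading Gr barcodes of day 119 (87.2% of its reads), 0 were listed in T at day 32, 40 in B, 58 in Gr and 76 in Mono. Among all 2013 Gr barcodes of day 119 the numbers were 21, 661, 518 and 757. Of the 100 leading Mono barcodes of day 119 (96.0% of its reads), 1 was listed in T, 35 in B, 59 in Gr and 74 in Mono. Among all 808 Mono barcodes of day 119 the numbers were 10, 269, 221 and 330. Of the 100 leading B barcodes of day 119, 1 was listed in T, 42 in B, 51 in Gr and 60 in Mono, with 28 and 25 among the top 100 of Gr and Mono at day 32. Among all 8349 B barcodes of day 119, 103 were listed in T at day 32, 2754 in B, 2263 in Gr and 2853 in Mono. Listing of the leaders in Gr and Mono was thus above the share over all barcodes, while listing in T and B was closer to it. In each of the sets of T, Gr and Mono 34 to 36 barcodes were among the top 100 of Gr and of Mono at day 32. The 100 leaders of T, Gr and Mono at day 119 overlap, so these sets are not separate support. Their overlap is 63 barcodes for T and Gr, 67 for T and Mono and 82 for Gr and Mono.

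bc7, bc8 and bc9, the highest in Gr and Mono at day 119, were chosen for their share on that day, so theirs are the largest Gr and Mono shares of that day. The Gr share of bc7 was 0.0881% on day 32 (rank 12) and 11.1% on day 119, and its Mono share was 0.0724% (rank 30) and then 8.26%. For bc8 the Gr shares were 0.119% and 10.7%. For bc9 they were 0.106% and 10.5%, and bc9 was the only one of the 3 listed in B at day 32, with 204 reads. All 3 were listed at 0 in T at day 32 and held 3.73%, 3.60% and 3.16% of T reads at day 119. Whether the 3 share a cell was not tested. The next leaders of Gr at day 119, bc12 and bc10, held 0.0318% and 0.0384% of Gr reads on day 32 and 2.30% and 2.28% on day 119.

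The 6 barcodes that later led the nRBC libraries, bc1 to bc6, were all listed in Gr and Mono at day 32, at ranks 43 to 1590 in Gr and 34 to 569 in Mono. Their single shares were 0.0140 to 0.0358% of Gr reads and 0.0181 to 0.0650% of Mono reads, and together they held 0.143% of Gr and 0.256% of Mono reads. bc1, bc5 and bc2 ranked 34, 36 and 37 of 10210 in Mono, just behind bc8, bc9 and bc7 at 25, 28 and 30. Of the 6, B listed bc2, bc4 and bc6, with 120, 160 and 108 reads, and T listed 0. Each of the 6 was listed in all 34 later libraries. At day 119 they held 0.387 to 0.678% of Gr reads and 0.132 to 0.201% of Mono reads each. Whether they mark a single cell was not tested, so they may not be 6 separate observations.

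The overlap of lineages differed between day 32 and the next days. The share of barcodes listed in a single lineage was 72.9%, 75.9%, 72.1% and 64.1% on days 32, 119, 187 and 266, and the share listed in all 4 was 0.116%, 2.09%, 2.34% and 5.68%. The share in all 4 is capped by the shortest list. At day 32 that was T, with 525 barcodes against 26702 listed in any of the 4 libraries. At day 119 it was Mono, with 808 against 14813. The day 32 share in all 4 could thus not have reached the later ones, and does not measure a difference in overlap. Among the top 100 barcodes of each library, a list of equal length on every day, Gr and Mono had 37, 82, 67 and 66 in common on days 32, 119, 187 and 266. T and Gr had 0, 63, 45 and 46, T and Mono 0, 67, 48 and 48, and T and B 3, 34, 17 and 25. B and Gr had 6, 39, 25 and 23, and B and Mono 5, 42, 27 and 31. The top lists were thus most distinct at day 32 in all 6 pairs, when reads were also spread most evenly and ranks near the 100th were close together.

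The 4 lists were close to each other and to the whole table in the form of their sequences. 97.9 to 98.2% of the barcodes began with gcaact, and the adapter began after 33 bases in 77.9% of T, 80.4% of B, 79.2% of Gr and 79.5% of Mono barcodes, against 79.2% in the whole table. The median GC content of the variable part was 52.6% in T, 53.8% in B, 52.0% in Gr and 53.6% in Mono. No barcode of day 32 differed by a single base from another that had at least 10 times its reads, so merging such pairs changed no count.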

How the data were processed

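The authors deposited 1 table of read counts for 44423 sequences of 50 bases in 38 libraries. The unit was taken from the values, since no header states it. Per the labels' protocols, the retrieval PCR started from 200 ng of DNA and ran for 28 cycles. The sources used here name no program for calling or merging barcodes.

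Counts were used as deposited, as percent of the column sum. No sequence was trimmed, merged or removed. The 4 libraries were set against each other, and against later days, by counts and shares with no test, since there is 1 library per lineage and day. Functions were tested on small made-up inputs and random sequences, and thinning on the Mono counts of day 32. Peaks were read from histograms smoothed by a Gaussian of 6 reads (200 in T), 10 for the wider smoothing of B, Gr and Mono, or 100 for less smoothing of T. Python 3.11.15, numpy 2.4.6, pandas 2.3.3 and scipy 1.17.1 were used.

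Named barcodes were the 5 leading ones of each day 32 library, the 5 with the highest lowest share over the 4, the 3 leading ones of each single-lineage class, the 5 leading ones of Gr and of Mono at day 119, and the 6 leading ones of nRBC. The alternatives were a common limit, thinning, merging, sequence form, equal lists and the inverse Simpson index. The libraries, lists and steps were chosen with earlier results of these data known.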

Additional observations from a re-analysis of the deposited data

How the results depend on the processing

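The numbers of listed and shared barcodes moved by over 1.5 times, and the single-lineage percentage beyond its counting interval, under 3 settings. With 1 common limit of 0.00695% of reads, B listed 4666 barcodes (effective number 4480) and Mono 6508 (5713), T and B had 68 in common, B and Gr 1231 and B and Mono 843, and 77.1% of barcodes were listed in 1 lineage. With each library thinned to 1438491 reads, the values were 4593 (4408) in B and 6451 (5665) in Mono, 65, 1219 and 830 in common, and 77.2%. With 525 barcodes from each library, T had 14 in common with B, 7 with Gr and 8 with Mono, B 33 with Gr and 27 with Mono, Gr and Mono had 113, and 91.3% were listed in 1 lineage. The effective numbers as reported were 479 in T, 14375 in B, 8050 in Gr and 8846 in Mono. The inverse Simpson index, merging sequences 1 base apart, keeping only sequences that start with gcaact and hold the adapter after 33 bases, and leaving out the T library (added after the data were seen) changed no such count by over 1.5 times and left the single-lineage percentage within its interval. Among the shares of reads in shared or named barcodes, 22 rose and 6 dropped beyond their counting intervals with the common limit, 22 and 6 with thinning and 40 and 3 with the stricter sequence form, since each of these changes the reads that are summed. What the libraries hold at or under 100 reads limits every count of listed and shared barcodes in B, Gr and Mono. No paired analysis was possible because each lineage and day has 1 library and no test was made.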
